A study of Mus musculus with 22 samples.

Results

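Livers that keep a working Flcn gene were compared between a methionine- and choline-deficient (MCD) diet and chow, across the 14062 of 55573 genes whose counts averaged 10 or more per library of the series. The mice, called Cre mice, carry FlcnWT/WT and Albumin-cre+/-, a transgene that makes the Cre recombinase in hepatocytes, and are on the C57BL/6 background. Mice were put on either diet when they were 6 weeks old, ate freely for 6 weeks and were 3 months old at sampling. Chow drew 10% of its energy from fat. Livers of 6 Cre mice on chow and 5 Cre mice on the MCD diet gave 1 mRNA library each, which is 11 of the 22 libraries of the series. The other 11 come from Flcnf/f; Albumin-Cre mice (liver-Flcn-/-) under the same diets, 5 on chow and 6 on MCD, and they enter here to estimate the spread between mice and to test where the response of Cre mice differed. Every Cre mouse expresses the recombinase, so the comparison of diets holds the transgene constant. The values are reads counted on each gene. Between 15276157 and 19417246 reads were counted per chow library and between 18201287 and 21144388 per MCD library.

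Methionine and choline are needed to make S-adenosylmethionine, glutathione and phosphatidylcholine. Without phosphatidylcholine the liver cannot package triglyceride into very low-density lipoproteins, and fat stays in hepatocytes. The diet is used as a model of steatohepatitis, in which fat accumulation is joined by inflammation, hepatocyte death and fibrosis, and body weight falls. Hepatocytes hold most liver RNA and carry the metabolic, secretory and detoxifying functions. Kupffer cells (the resident macrophages), stellate cells (which store vitamin A and become collagen-producing myofibroblasts), sinusoidal endothelium and bile duct cells make up most of the rest.

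Several libraries stood apart and are described before the results. In Cre MCD 3, the 28 genes listed for skeletal muscle, a tissue that should be absent, summed to 4588.5 CPM (read counts relative to library size, which was scaled by edgeR's TMM factors), with Myh1, a fast myosin, as the most abundant. In the other MCD libraries 1, 2, 4 and 5 they summed to 42.9, 19.95, 226.3 and 13.7 CPM, and on chow to 26.5 to 43.0 CPM. All 28 were highest in Cre MCD 3. The lists for lymphocytes (162.5 CPM), adipocytes (40.4 CPM) and mesothelium, the cell layer on the liver's surface (31.5 CPM), also had their highest sum there. In Cre Chow 5, the 15 genes listed for bile duct cells summed to 121.4 CPM against 38.5 to 61.9 CPM in the other chow libraries. Of the 15, 8 were highest in Cre Chow 5 among all Cre libraries, and its neutrophil list, at 51.3 CPM against 3.1 to 11.7 CPM in the other chow libraries, was high as well. The 12 hepatocyte genes, led by Alb, summed to 128801 to 176082 CPM on chow and to 99942, 74179, 115072, 108423 and 105810 CPM on MCD. This was the highest sum among the marker lists in every library. The plot of summed marker values shows these libraries beside the rest.

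**Figure D1:**
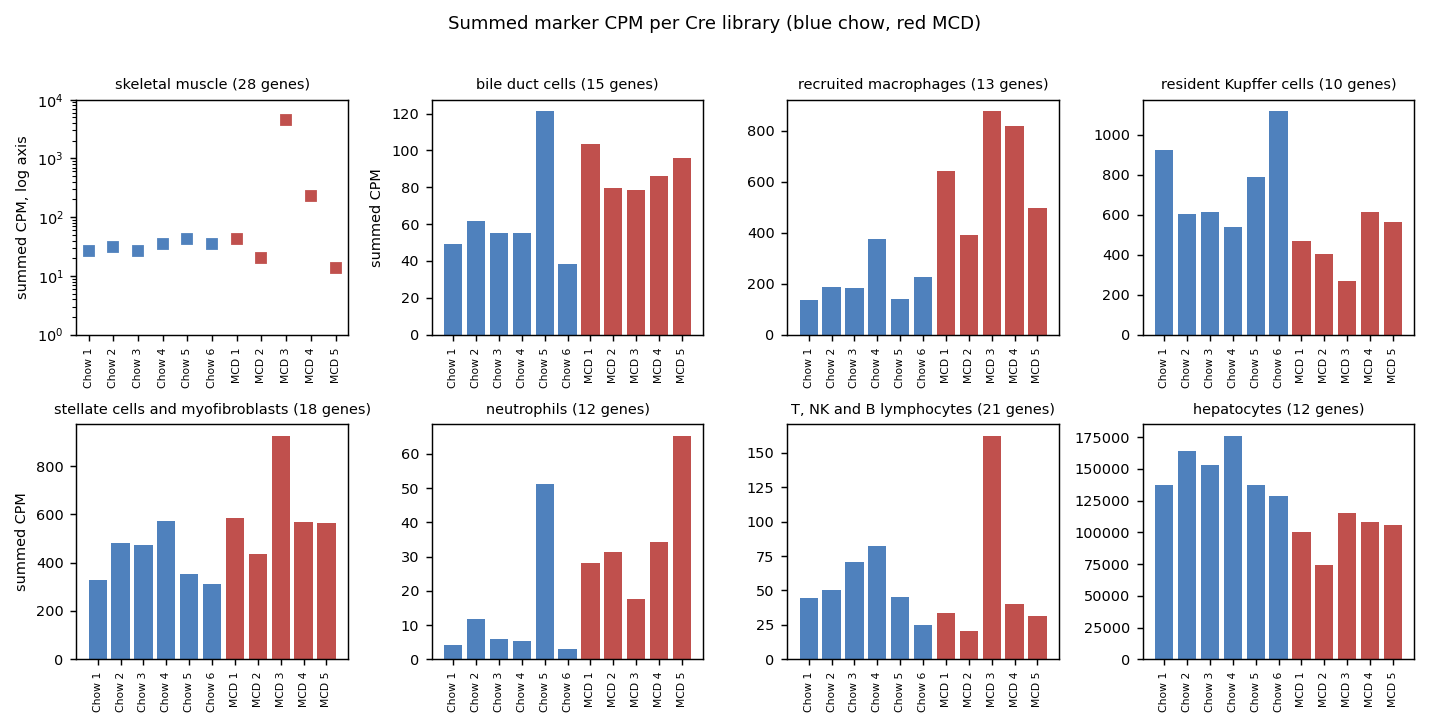
Summed CPM of marker lists in each of the 11 Cre libraries (6 chow in blue, 5 MCD in red), 1 panel per cell type, with the number of genes in brackets; the skeletal muscle panel has a log axis and squares, the others bars from 0. Cre MCD 3 stands out for skeletal muscle (4588.5 CPM) and Cre Chow 5 for bile duct cells (121.4 CPM).

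Sex is not among the labels used here, and the counts show both. Xist, the RNA of the inactive X chromosome, had 5411 to 6979 counts in Cre Chow 2, 3 and 4 and Cre MCD 1, 2 and 5, and at most 5 in Cre Chow 1, 5 and 6 and Cre MCD 3 and 4, where 4 Y-linked genes summed to 1906 to 3597 counts. Cre MCD 1 held both kinds (5411 and 675 counts). Cre Chow 2 also held 180 Y-linked counts. The 3 chow libraries with Y-linked RNA are also the 3 of Cre mice for which the study lists a low share of uniquely mapped reads. Sex and mapping therefore cannot be told apart within chow. Chow libraries 1 and 3 of liver-Flcn-/- mice, also with Y-linked RNA, have a low share too. Results without the chow libraries of low mapping share leave out the low-share libraries of both genotypes. They set chow livers with Xist RNA only against MCD livers of both kinds, so sex is not balanced between the diets. Results were therefore also computed within the libraries with Xist RNA (3 chow, 3 MCD) and within those with Y-linked RNA (3 chow, 2 MCD).

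Flcn itself did not separate the diets. It had 26.1 to 40.2 CPM (median 31.8) on chow and 31.7, 18.2, 39.9, 32.5 and 23.6 CPM on MCD (log2 fold change −0.12, SE 0.17, adjusted p = 0.57). Flcn encodes folliculin, which restrains the lysosomal transcription factors TFEB and TFE3. Of 10 genes of that pathway, 5 rose and none fell, a share of 50% against 29.3% of all tested genes. Within Y libraries 3 were higher and none lower, and both within Xist libraries and without Cre MCD 3 4 were higher and 1 lower. Rragd, a Rag GTPase and a target of those factors, rose from 1.5 to 2.59 CPM (median 2.43) on chow to 7.58, 5.82, 9.89, 3.83 and 6.71 CPM on MCD without overlap (log2 fold change 1.62, SE 0.25, adjusted p = 1.27e-05).

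Across all tested genes, 4121 (29.3%) were higher and 3968 (28.2%) lower on MCD by edgeR's quasi-likelihood test (threshold 0.05 after Benjamini-Hochberg adjustment), 57.5% in either direction. With a change of at least 2-fold added, 1740 genes (12.4%) were higher and 1255 (8.92%) lower. All 5 MCD values lay above all 6 chow values for 2200 genes (15.6%) and below them for 2373 (16.9%). The first principal component of log2 CPM held 61.0% of the variance among the 11 libraries and separated the diets. Counts of members below are to be read against these shares, since a list with about 3 in 10 members higher and 3 in 10 lower resembles the whole table. Fold changes are log2 of MCD over chow, and the exact permutation test of 6 against 5 mice cannot give a p below 0.00216. Where the groups do not overlap, this p lies at or near that limit and adds nothing to the lack of overlap. In these bulk samples, fewer cells of a type and less RNA per cell cannot be told apart.

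**Figure D2:**
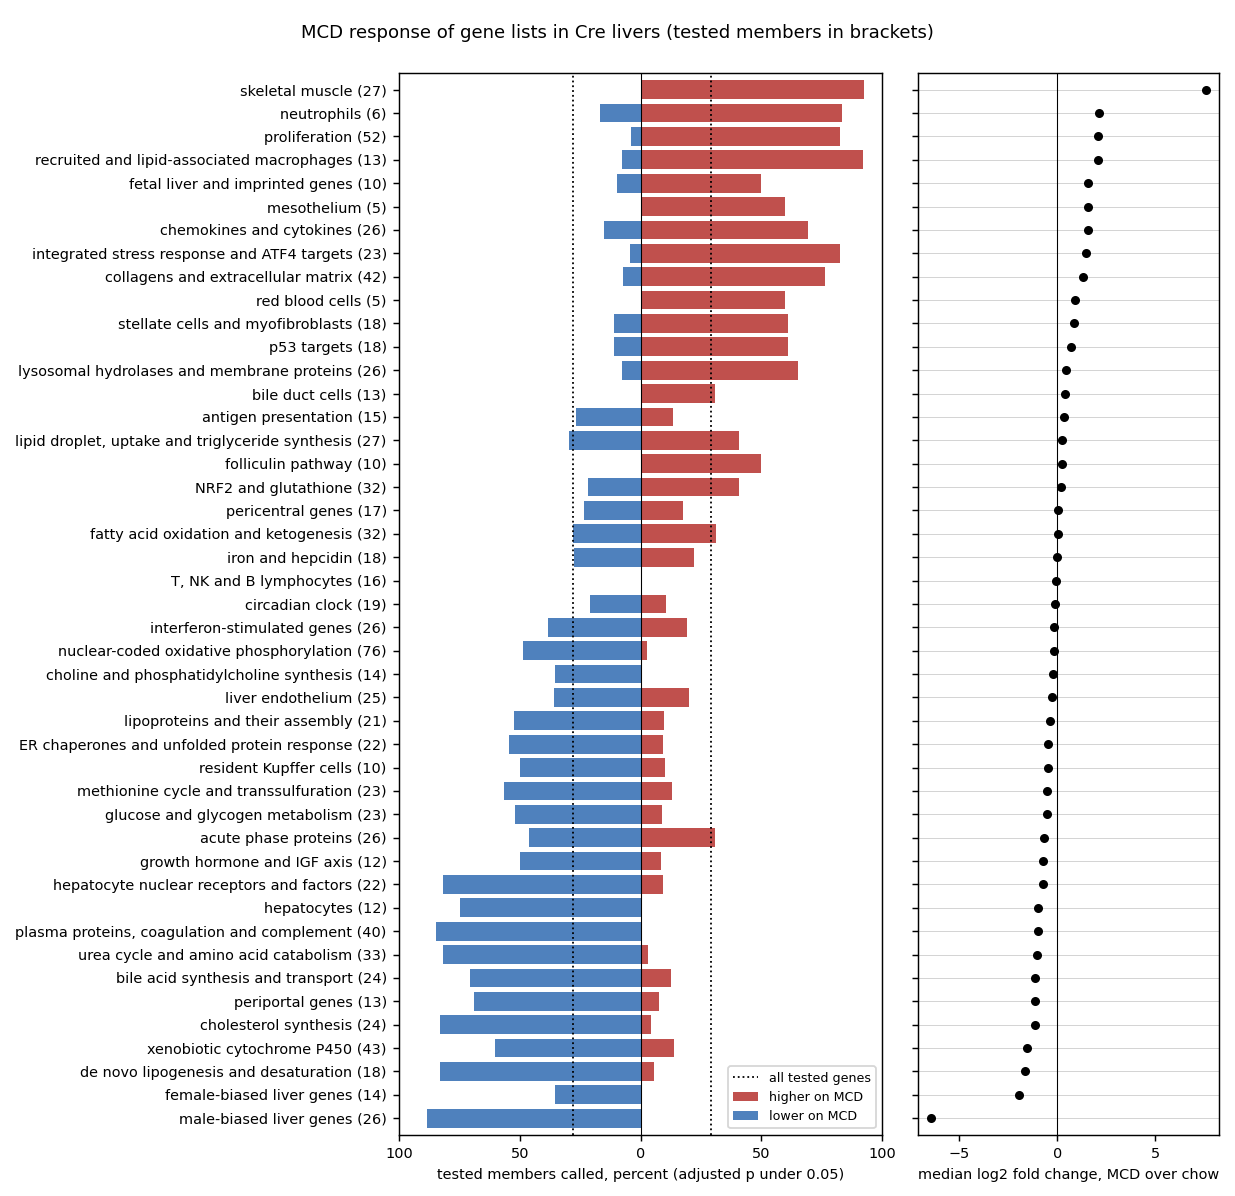
Percent of each list's tested members called higher (red, to the right) or lower (blue, to the left) on MCD in Cre livers, with dotted lines at the shares over all tested genes (29.3% and 28.2%), and beside it the median log2 fold change of the list. Adipocytes and pancreatic acinar cells, with 1 and 2 tested members, and the sex markers are not drawn. The lists drawn are ordered by that median, with skeletal muscle, neutrophils, proliferation and recruited macrophages highest and male-biased genes, female-biased genes, lipogenesis and cytochrome P450 lowest. The skeletal muscle counts rest on Cre MCD 3 and Cre MCD 4.

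Of 23 genes of the methionine cycle and transsulfuration 3 were higher and 13 lower, against 29.3% and 28.2% of all genes (median −0.52). The 16 enzymes of the methionine cycle, which make or spend methyl groups, had 3 higher, 7 lower and 6 not called (median −0.27), with 3 higher and 4 lower within Xist libraries and 1 higher and 6 lower within Y libraries. Mat2a (ENSMUSG00000053907, chromosome 6 from 72432799 to 72439558 on the minus strand) encodes the S-adenosylmethionine synthase of tissues other than adult liver. It had 60.7 to 111 CPM (median 67.8) on chow and 518, 757, 427, 454 and 445 CPM on MCD, a 6.9-fold rise with a wide gap between the groups (log2 fold change 2.79, SE 0.17, adjusted p = 4.7e-11; exact permutation p = 0.00216). Mat1a, the form of adult hepatocytes, had 2081 to 4088 CPM (median 3444) on chow and 2643 to 4345 CPM on MCD and did not pass (−0.02, SE 0.18, adjusted p = 0.922). Gnmt, which consumes S-adenosylmethionine to methylate glycine, fell from 1713 to 2602 CPM (median 2127) on chow to 723, 566, 956, 785 and 647 CPM on MCD, again without overlap (log2 fold change −1.54, SE 0.16, adjusted p = 4.7e-08). The enzymes of transsulfuration, which turn homocysteine into cysteine and taurine, had 6 of 7 members lower and none higher (median −1.23). Among them Cbs, the entry step, fell from 622 to 956 CPM (median 811) on chow to 289 to 386 CPM on MCD (log2 fold change −1.26, SE 0.15, adjusted p = 6.02e-07). Aldh7a1, which oxidizes betaine aldehyde, the step after choline, fell from 443 to 725 CPM on chow to 152 to 188 CPM on MCD (−1.78, SE 0.11, adjusted p = 2.69e-11), and Bhmt, which remethylates homocysteine with betaine, overlapped between diets (−0.55, SE 0.28, adjusted p = 0.101). Mtrr, the reductase that reactivates methionine synthase, rose (0.57, SE 0.17, adjusted p = 0.00641).

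The choline and phosphatidylcholine list had 5 of 14 members lower and none higher (median −0.22). Slc44a1, a choline transporter, fell from 43.8 to 84.8 CPM (median 76.7) on chow to 27.0, 17.7, 29.9, 24.1 and 29.5 CPM on MCD without overlap (log2 fold change −1.45, SE 0.16, adjusted p = 2.33e-07). Chpt1, the last step of the CDP-choline route, fell by less and with overlap (−0.79, SE 0.21, adjusted p = 0.00273). Pemt, which makes phosphatidylcholine by methylating phosphatidylethanolamine, had nearly the same level on both diets, 287 to 446 CPM (median 327) on chow and 283 to 429 CPM on MCD (0.02, SE 0.13, adjusted p = 0.899). Chka, choline kinase alpha, did not pass either (−0.47, SE 0.34, adjusted p = 0.24).

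The integrated stress response, in which amino acid shortage and other stresses raise the transcription factor ATF4 and its targets, went up (23 tested, 19 higher and 1 lower; median 1.47). Of its 6 factors 5 were higher (median 3.12), and of its 17 targets 14 were higher (median 1.46). Asns, asparagine synthetase, had 0.121 to 10.8 CPM (median 1.03) on chow and 63.7, 119.9, 44.0, 75.05 and 106 CPM on MCD, with no overlap although Cre Chow 6 stood above the other chow livers (log2 fold change 5.02, SE 0.68, adjusted p = 2.55e-06). Psat1, of serine synthesis, rose from 0.486 to 1.58 CPM (median 0.762) on chow to 48.9, 114, 18.3, 38.9 and 48.8 CPM on MCD (log2 fold change 5.93, SE 0.43, adjusted p = 4.29e-10). Slc7a11 imports cystine, the oxidized form of the cysteine needed for glutathione. It had at most 1 count in each chow library and 2.59 to 6.14 CPM on MCD, and the ratio of summed counts was 195 (exact 95% counting interval 53.7 to 1615). Fgf21, a hormone that hepatocytes release under nutrient stress, rose from 0.87 to 5.22 CPM (median 1.49) on chow to 28.2, 106, 17.1, 53.3 and 26.4 CPM on MCD (log2 fold change 4.33, SE 0.50, adjusted p = 2.66e-07; exact permutation p = 0.00216). Trib3, a pseudokinase that feeds back on ATF4, rose from 4.86 to 17.0 CPM (median 6.52) on chow to 93.7, 248, 66.8, 76.1 and 112 CPM on MCD, highest in Cre MCD 2 (log2 fold change 3.88, SE 0.37, adjusted p = 2.48e-08). The lone member that fell was Shmt2, the mitochondrial serine hydroxymethyltransferase (−0.53, SE 0.09, adjusted p = 4.39e-05).

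The promoter of Fgf21 is shown because it is 1 of the 2 promoters, with that of Nupr1, among the 17 risen members with a RefSeq window (250 bases before to 50 after the start, GRCm38.p6) in which the composite C/EBP-ATF letters TGATGNAAT were found on either strand. Of all 27025 genes with a window, 1.08% held them. The capitals mark the match, here on the opposite strand, and the sequence runs 5′ to 3′ on the gene's strand (chr7:45615441-45615740, minus strand). A match is a description of letters, and windows without it say nothing on the factor.
Fgf21: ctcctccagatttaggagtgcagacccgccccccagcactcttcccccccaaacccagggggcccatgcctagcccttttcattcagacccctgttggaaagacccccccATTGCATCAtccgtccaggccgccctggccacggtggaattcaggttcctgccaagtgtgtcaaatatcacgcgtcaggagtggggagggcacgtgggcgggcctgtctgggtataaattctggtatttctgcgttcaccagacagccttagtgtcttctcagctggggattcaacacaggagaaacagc

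Of 22 genes listed as ER chaperones and unfolded protein response (ER, the endoplasmic reticulum) 2 were higher and 12 lower (median −0.45). Without the chow libraries of low mapping share 6 were higher and 6 lower (median −0.097), and within Xist libraries 3 were higher and 6 lower (median −0.14). Sdf2l1, an ER-resident stress gene, fell from 22.8 to 78.8 CPM (median 35.9) on chow to 12.6, 14.6, 12.7, 15.7 and 14.9 CPM on MCD without overlap (log2 fold change −1.61, SE 0.24, adjusted p = 7.19e-06), and Edem1, of ER-associated degradation, fell as well (−0.999, SE 0.12, adjusted p = 7.43e-07). Atf6, a sensor, rose (0.65, SE 0.12, adjusted p = 0.000127), as did the cochaperone Dnajb9 (0.61, SE 0.20, adjusted p = 0.0122). Hspa5, the main ER chaperone, had 872 to 2212 CPM (median 979) on chow and 1311, 1891, 1432, 1358 and 1095 CPM on MCD, with groups that overlapped (0.18, SE 0.20, adjusted p = 0.447).

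NRF2 targets and glutathione enzymes were divided (32 tested, 13 higher and 7 lower; median 0.20). Nqo1, a quinone reductase and standard NRF2 target, rose from 7.55 to 20.6 CPM (median 13.4) on chow to 30.7, 21.2, 21.1, 28.8 and 41.0 CPM on MCD, just without overlap (log2 fold change 1.08, SE 0.33, adjusted p = 0.00794). Gsta1, a glutathione transferase, rose from 0.0677 to 0.494 CPM on chow to 3.94 to 11.5 CPM on MCD (4.93, SE 0.50, adjusted p = 5.51e-08), and Cbr3, a carbonyl reductase, rose with overlap (2.60, SE 0.42, adjusted p = 2.34e-05). Gclc, the rate-limiting enzyme of glutathione synthesis, did not pass (−0.10, SE 0.15, adjusted p = 0.591). Gstm6 (−1.70, SE 0.14, adjusted p = 4.37e-09) and Gstt3 (−1.85, SE 0.42, adjusted p = 0.000817) fell. Glutathione transferases are close paralogs whose reads the counting may divide between copies, so single members are uncertain.

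Fat synthesis was among the functions that fell furthest. Of 18 genes of de novo lipogenesis and desaturation 15 were lower and 1 higher (median −1.62), and all 5 of the transcription factors and regulators in the list were lower. Scd1 (ENSMUSG00000037071, chromosome 19 from 44394455 to 44407879 on the minus strand), the desaturase that makes oleate, had 8930.5 to 24868 CPM (median 10459) on chow and 172, 34.1, 465, 36.2 and 48.7 CPM on MCD. That is an 85.4-fold fall (log2 fold change −6.42, SE 0.80, adjusted p = 8.62e-07; exact permutation p = 0.00216), and even the highest MCD liver, Cre MCD 3, was far below the lowest chow liver. Fasn, fatty acid synthase, fell from 465 to 2368 CPM (median 1372) on chow to 143, 134, 455, 158 and 123 CPM on MCD (log2 fold change −2.74, SE 0.45, adjusted p = 2.4e-05), again with Cre MCD 3 highest on MCD. Srebf1, which encodes the factor that drives both, fell from 153 to 506 CPM (median 245) on chow to 98.1, 77.3, 167, 83.5 and 78.5 CPM on MCD, where Cre MCD 3 reached into the chow range (log2 fold change −1.54, SE 0.29, adjusted p = 0.000122). Pnpla3, a lipid hydrolase under the same control, fell from 0.562 to 23.1 CPM (median 8.88) to at most 0.256 CPM (−5.93, SE 0.92, adjusted p = 1.33e-05). Fads2, which makes polyunsaturated fatty acids, was the exception and rose (0.59, SE 0.12, adjusted p = 0.000386).

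Cholesterol synthesis fell with it (24 tested, 1 higher and 20 lower; median −1.16). Tm7sf2, a sterol reductase, fell from 143 to 213 CPM (median 171) on chow to 18.9, 11.9, 13.5, 25.3 and 18.3 CPM on MCD without overlap (log2 fold change −3.30, SE 0.16, adjusted p = 4.78e-12). Nsdhl, of the same late pathway, fell from 126 to 194 CPM on chow to 25.4 to 54.6 CPM on MCD (−2.03, SE 0.20, adjusted p = 3.62e-08). Sqle, squalene epoxidase, fell with overlap (−0.71, SE 0.20, adjusted p = 0.00475). The letters TCACNCCAC of the sterol element were found in the windows of 1 of the 13 fallen members with a RefSeq promoter, Hmgcs1, against 1.44% of all genes.

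Bile acid genes were mostly lower (24 tested, 3 higher and 17 lower; median −1.12). Of 12 synthesis genes 10 fell and none rose, and of 4 uptake transporters 3 fell. Of 6 exporters 3 rose and 2 fell, and of 2 receptors 2 fell. The roles were not compared by a test. Slc10a1 (NTCP), the main importer of bile acids from blood (ENSMUSG00000021135, chromosome 12 from 80953183 to 80968705 on the minus strand), had 781 to 934 CPM (median 875) on chow and 96.5, 45.2, 111, 109 and 141 CPM on MCD (log2 fold change −3.11, SE 0.23, adjusted p = 4.45e-10; exact permutation p = 0.00216). Slco1a1, an organic anion importer, fell from 34.8 to 911 CPM (median 295) on chow to 0.453, 0.345, 13.3, 1.55 and 0.461 CPM on MCD (log2 fold change −6.88, SE 1.27, adjusted p = 9.53e-05). Cyp8b1, which sets the share of cholic acid, fell from 237 to 589.5 CPM (median 405) on chow to 120.3, 35.4, 134, 182 and 149 CPM on MCD (log2 fold change −1.67, SE 0.35, adjusted p = 0.000404). Cyp7a1, the rate-limiting enzyme of the classic pathway, had 51.3 to 222 CPM (median 103) on chow and 113, 103, 135, 95.3 and 117 CPM on MCD and did not pass (−0.08, SE 0.32, adjusted p = 0.845). Abcc4 and Slc51b, which export bile acids back to blood, rose from 1.11 to 5.06 CPM on chow to 13.03 to 50.1 CPM on MCD (3.44, SE 0.44, adjusted p = 1.34e-06) and from 0.643 to 1.7 CPM on chow to 2.48 to 15.3 CPM on MCD (3.10, SE 0.37, adjusted p = 4.47e-07).

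Of 27 tested genes of lipid droplets, fat uptake and triglyceride synthesis 11 were higher (40.7%) and 8 lower (29.6%), with a median of 0.22. The shares over all genes were 29.3% and 28.2%. Of 11 droplet proteins 7 were higher and 1 lower (median 0.82). Of 6 lipases 2 were higher and 2 lower, and of 10 genes of uptake and synthesis 2 were higher and 5 lower (median −0.31). Cidec, which fuses lipid droplets, had 0.237 to 1.61 CPM (median 0.887) on chow and 94.6, 162, 28.7, 105 and 121 CPM on MCD, a 112-fold rise (log2 fold change 6.81, SE 0.55, adjusted p = 1.79e-09; exact permutation p = 0.00216). Plin2, the droplet coat protein used as a mark of steatosis, rose from 350.2 to 749.9 CPM (median 551) on chow to 958, 1307, 763, 1177 and 1165 CPM on MCD and just cleared the chow range (log2 fold change 0.98, SE 0.20, adjusted p = 0.000238). Cd36, a fatty acid importer, rose from 14.9 to 76.6 CPM (median 36.6) on chow to 385, 365, 439, 334 and 479.8 CPM on MCD (log2 fold change 3.24, SE 0.30, adjusted p = 1.64e-08). Plin4 rose from 1.69 to 2.41 CPM on chow to 10.8 to 36.8 CPM on MCD (3.60, SE 0.28, adjusted p = 1.44e-09). Fabp1, the abundant fatty acid carrier of hepatocytes, fell from 3645 to 10094 CPM (median 5720.1) on chow to 1234, 586, 792, 1759 and 1439 CPM on MCD (log2 fold change −2.41, SE 0.28, adjusted p = 3.31e-07). Ces1d, a triglyceride hydrolase that feeds lipoprotein assembly, fell from 459.7 to 1118 CPM on chow to 88.5 to 240.3 CPM on MCD (−2.18, SE 0.30, adjusted p = 2.54e-06).

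Of 32 genes of fatty acid oxidation and ketogenesis 10 were higher and 9 lower (median 0.02), close to the shares over all genes, and within Xist libraries 6 were higher and 7 lower. Cyp4a14, an omega-hydroxylase and PPARα target, rose from 7.55 to 222 CPM (median 84.1) on chow to 1369, 1703, 983, 1501 and 2451 CPM on MCD (log2 fold change 3.94, SE 0.78, adjusted p = 0.000203), and Acot2, a mitochondrial thioesterase, rose from 1.5 to 10.0 CPM on chow to 28.3 to 70.5 CPM on MCD (3.31, SE 0.39, adjusted p = 3.8e-07). Acaa2, of the mitochondrial pathway, fell (−0.66, SE 0.09, adjusted p = 1.98e-06). Cpt1a, the gate of mitochondrial oxidation, did not pass (0.28, SE 0.20, adjusted p = 0.239).

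Lipoprotein genes had 11 of 21 members lower and 2 higher (median −0.35). Mttp, which loads fat onto apolipoprotein B, fell from 308 to 422 CPM (median 389) on chow to 189.6, 136, 214, 172 and 234 CPM on MCD (log2 fold change −1.02, SE 0.13, adjusted p = 1.3e-06), whereas Apob itself overlapped between diets (−0.09, SE 0.12, adjusted p = 0.527). Lipc, hepatic lipase, fell from 185 to 304 CPM on chow to 29.5 to 56.1 CPM on MCD (−2.41, SE 0.17, adjusted p = 2.93e-10), and Pltp, the phospholipid transfer protein, fell with overlap (−1.56, SE 0.37, adjusted p = 0.00127). Apoa4, which rises with hepatic fat in several mouse models, went from 392 to 903 CPM (median 559.8) on chow to 8096, 12871, 2418, 12217 and 14578 CPM on MCD (log2 fold change 4.09, SE 0.40, adjusted p = 3.62e-08). Apoc2, the activator of lipoprotein lipase, also rose (1.90, SE 0.29, adjusted p = 9.58e-06).

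Of 23 genes of glucose and glycogen metabolism 12 were lower and 2 higher (median −0.53). G6pc, which releases glucose, fell from 273 to 684 CPM (median 523) on chow to 80.5, 32.9, 105, 96.4 and 135 CPM on MCD (log2 fold change −2.47, SE 0.43, adjusted p = 5.33e-05), and Ppp1r3b, which targets phosphatase to glycogen, fell from 103 to 551 CPM on chow to 23.6 to 62.0 CPM on MCD (−3.32, SE 0.41, adjusted p = 8.16e-07). Pck1, of gluconeogenesis, did not pass (−0.53, SE 0.27, adjusted p = 0.0971). Igfbp1, which insulin represses, rose from 28.7 to 241 CPM (median 70.1) on chow to 449, 382, 304, 398 and 577 CPM on MCD (log2 fold change 2.18, SE 0.53, adjusted p = 0.0015).

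**Figure D3:**
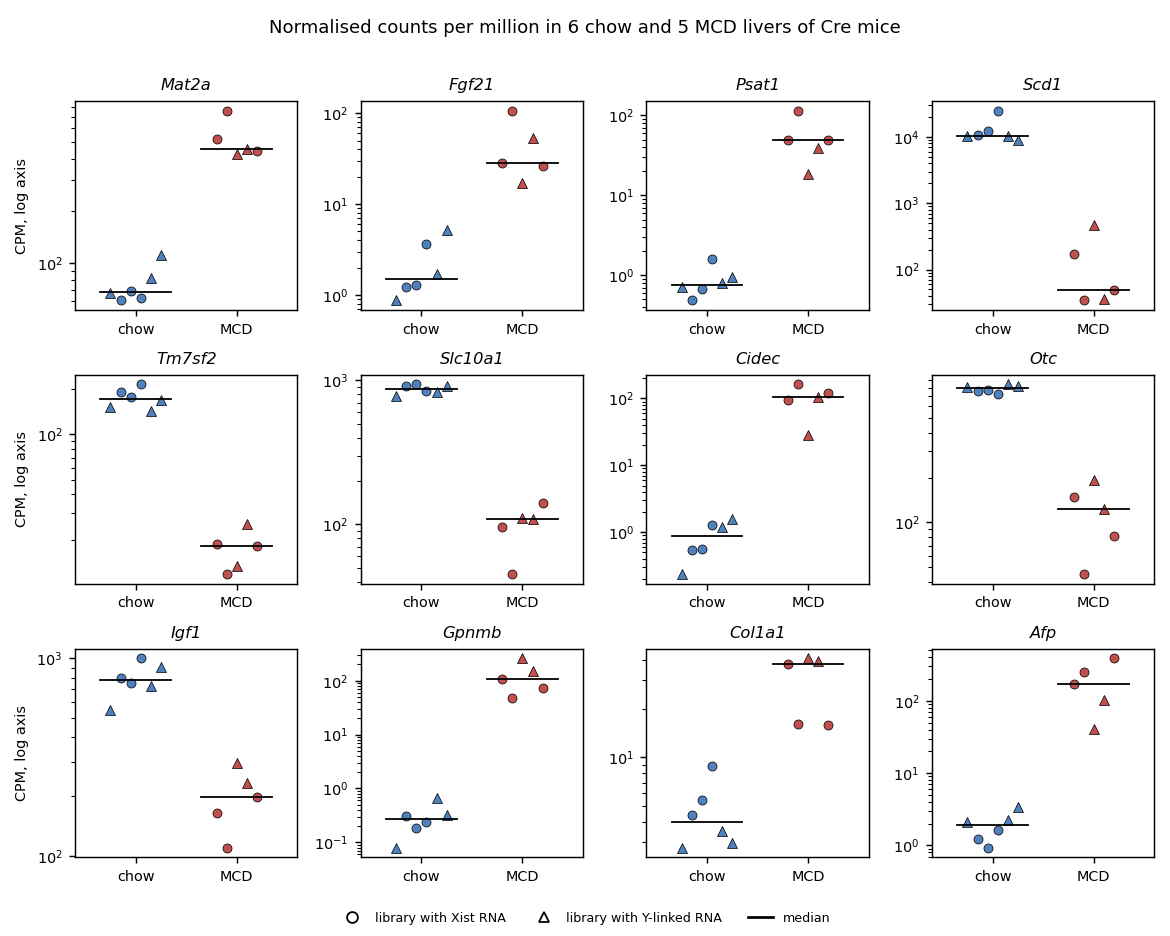
CPM of 12 genes in the 6 chow (blue) and 5 MCD (red) livers of Cre mice on log axes, 1 point per mouse, with circles for libraries with Xist RNA, triangles for libraries with Y-linked RNA and a bar at the median. In each of the 12 panels the groups do not overlap; Scd1, for example, had 8930.5 to 24868 CPM on chow and 34.1 to 465 CPM on MCD.

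Amino acid breakdown and the urea cycle fell almost throughout (33 tested, 1 higher and 27 lower; median −1.05). All 8 urea cycle genes were lower. Otc, ornithine transcarbamylase, had 723 to 839.7 CPM (median 791) on chow and 148, 45.1, 192, 122 and 80.7 CPM on MCD (log2 fold change −2.74, SE 0.26, adjusted p = 2.4e-08), and Cps1, the entry step, fell from 3554 to 6750 CPM (median 4925) on chow to 2383, 2687, 3406, 2108 and 1974 CPM on MCD (log2 fold change −0.99, SE 0.17, adjusted p = 6.12e-05). Haao, of tryptophan breakdown, fell from 635 to 742 CPM (median 704) on chow to 95.8, 55.8, 134, 104 and 70.8 CPM on MCD (log2 fold change −2.91, SE 0.19, adjusted p = 9.77e-11). Sds, serine dehydratase, fell from 204 to 246 CPM on chow to 32.1 to 77.0 CPM on MCD (−2.26, SE 0.27, adjusted p = 3.87e-07). Tat, tyrosine aminotransferase, did not pass (−0.61, SE 0.29, adjusted p = 0.0758), and Gpt, the alanine transaminase of serum tests, was the member that rose (0.58, SE 0.13, adjusted p = 0.000465).

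The lists of zonation markers were not compared with each other by a test. Of 13 periportal genes 9 were lower and 1 higher (median −1.13). Of 17 pericentral genes 4 were lower (23.5%) and 3 higher (17.6%), with a median of 0.05, against 28.2% and 29.3% of all genes. Among periportal genes Pigr, the immunoglobulin receptor, fell from 1205 to 2134 CPM on chow to 199 to 657 CPM on MCD (−2.07, SE 0.22, adjusted p = 1.14e-07) and Cyp2f2 from 755 to 2015 CPM (median 1355) on chow to 343, 204, 546, 424 and 219.7 CPM on MCD (log2 fold change −1.96, SE 0.34, adjusted p = 5.76e-05), whereas Aldh1b1 rose (0.72, SE 0.23, adjusted p = 0.00994). Among pericentral genes Glul, glutamine synthetase, fell from 1169.6 to 1627 CPM (median 1410.4) on chow to 831, 461, 1048, 759.7 and 549.7 CPM on MCD (log2 fold change −0.94, SE 0.18, adjusted p = 0.000126) and Slc1a2, a glutamate transporter, fell with overlap (−1.28, SE 0.31, adjusted p = 0.00127). Cyp2e1, which oxidizes ethanol and fatty acids, did not pass (0.19, SE 0.17, adjusted p = 0.333), and Rhbg, an ammonium transporter, rose (1.04, SE 0.24, adjusted p = 0.000796). Whether zonation itself shifted was not tested in these bulk samples.

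Cytochrome P450 genes of drug metabolism had 26 of 43 tested members lower and 6 higher (median −1.52). With sex as a covariate 26 were lower and 8 higher (median −0.69), and within Y libraries 20 were lower and 11 higher (median −0.66). Cyp1a2 fell from 579.5 to 1224 CPM (median 1061) on chow to 232, 126, 335, 233 and 215 CPM on MCD (log2 fold change −2.11, SE 0.23, adjusted p = 1.06e-07). Cyp2c54 fell from 207 to 321 CPM (median 257) on chow to 2.31, 0.819, 4.41, 1.12 and 2.2 CPM on MCD, with no overlap and little spread on chow (log2 fold change −6.93, SE 0.49, adjusted p = 2.7e-10). Cyp3a11, the main drug oxidase, went the other way, from 1357 to 1776 CPM (median 1515) on chow to 4323, 2585, 2443, 3027 and 3756 CPM on MCD (log2 fold change 1.08, SE 0.23, adjusted p = 0.000425), as did its neighbour Cyp3a59 (1.88, SE 0.27, adjusted p = 4.29e-06). Cyp2b10 overlapped, with 0.321 to 53.9 CPM (median 15.8) on chow and 3.46, 2.93, 0.141, 1.36 and 2.82 CPM on MCD (log2 fold change −3.33, SE 0.91, adjusted p = 0.00348). Cyp2a22 rose on average (5.29, SE 1.35, adjusted p = 0.00216) with 66.6, 4.35, 0.281, 0.097 and 0.205 CPM in the 5 MCD livers, so Cre MCD 1 and 2 were high and the other MCD livers lay within or below the chow range. These families hold near-identical copies, and 12 of the 43 responded differently by sex (3.19% of all genes).

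Male-biased genes were among the largest falls. In mice the pulsatile release of growth hormone in males, read through STAT5B, keeps a set of genes high in male liver, and the steady pattern of females keeps another set high. Of 12 genes of the growth hormone and IGF axis 6 were lower and 1 higher. Of 26 male-biased liver genes 23 were lower on MCD and none higher (median −6.41). Within Xist libraries 21 were lower and 3 higher (median −4.19), and within Y libraries all 26 were lower (median −6.49). Without the chow libraries of low mapping share 21 were lower and 4 higher (median −2.87). There chow held Xist libraries only and MCD both kinds, so that count mixes sex with diet. Of 14 female-biased genes 5 were lower and none higher (median −1.95), but their median was −2.86 within Xist libraries and 5.64 within Y libraries. The Y value rests on 3 chow and 2 MCD libraries. The receptor Ghr fell from 516 to 725 CPM (median 643) on chow to 117, 93.2, 214, 106 and 107 CPM on MCD (log2 fold change −2.33, SE 0.19, adjusted p = 1.7e-09), and its hormone target Igf1 fell from 545 to 1004 CPM (median 777) on chow to 164, 109.8, 294, 233 and 198 CPM on MCD (log2 fold change −1.98, SE 0.21, adjusted p = 1.16e-07). Igfals, which carries IGF1 in blood, fell as well (−2.14, SE 0.27, adjusted p = 9.12e-07), while Igfbp2 rose (1.21, SE 0.21, adjusted p = 3.89e-05).

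Mup17, 1 of the major urinary proteins that males secrete in large amounts, had 178, 231 and 149 CPM in the chow libraries with Xist RNA and 2703, 1893 and 2717 CPM in those with Y-linked RNA. On MCD it had 2.02, 0.0862, 7.78, 1.31 and 1.74 CPM, so it was lower in both (−7.18 within Xist libraries and −9.06 within Y libraries on the log2 scale; log2 fold change −8.99, SE 1.38, adjusted p = 1.21e-05 overall). Serpina1e, an α1-antitrypsin copy, fell likewise from 97.2 to 11890.1 CPM (median 2508) on chow to 2.35, 0.733, 18.0, 2.57 and 9.94 CPM on MCD (log2 fold change −9.15, SE 1.604, adjusted p = 5.58e-05), and Hsd3b5, a male steroid enzyme, from 5.29 to 597 CPM (median 148) on chow to 0.865, 0.733, 2.86, 0.243 and 0.769 CPM on MCD (log2 fold change −7.67, SE 1.44, adjusted p = 0.00012). Elovl3, a fatty acid elongase, had 605, 456 and 308 CPM in the Y chow libraries, 23.1, 11.2 and 5.11 CPM in the Xist chow libraries and 2.92, 2.28, 3.84, 2.47 and 2.05 CPM on MCD. Its response differed between the sexes (log2 difference −4.74, adjusted p = 0.0425). Major urinary proteins are near-identical copies, so the level of any single copy is uncertain.

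Female-biased genes had the opposite pattern on chow. A1bg had 1182, 683 and 526 CPM in the Xist chow libraries and 0.316, 0.0677 and 0.321 CPM in the Y chow libraries, and 6.96, 0.474, 1.31, 1.6 and 1.59 CPM on MCD. Within Xist libraries its change was −8.02 (log2, adjusted p = 1.85e-05), within Y libraries the change was 2.65 (adjusted p = 0.318), and the responses differed (log2 difference 10.67, adjusted p = 0.00997). The Y chow levels of A1bg lie near the floor, so fold changes from them are uncertain. Over the female-biased list, 11 of 14 members were lower and none higher within Xist libraries, whereas 9 of 14 were higher and none lower within Y libraries. Over all genes, 25.5% were higher and 24.7% lower within Xist libraries, and 21.3% and 20.3% within Y libraries. Mup20 (darcin), a male pheromone, showed the mirror image: it rose within Xist libraries (1.68, adjusted p = 0.0426) and fell within Y libraries (−3.20, adjusted p = 0.00459). It had 187, 68.5 and 27.99 CPM in the Xist chow libraries, 3486, 3173 and 5699.99 CPM in the Y chow libraries and 334, 229, 526, 368 and 348 CPM on MCD. The number of genes that differed between Y and Xist libraries was 931 (6.62%) on chow and 161 on MCD. The 2 numbers were not compared by a test, and the MCD groups are smaller. Sex and the share of mapped reads cannot be told apart on chow.

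**Figure D4:**
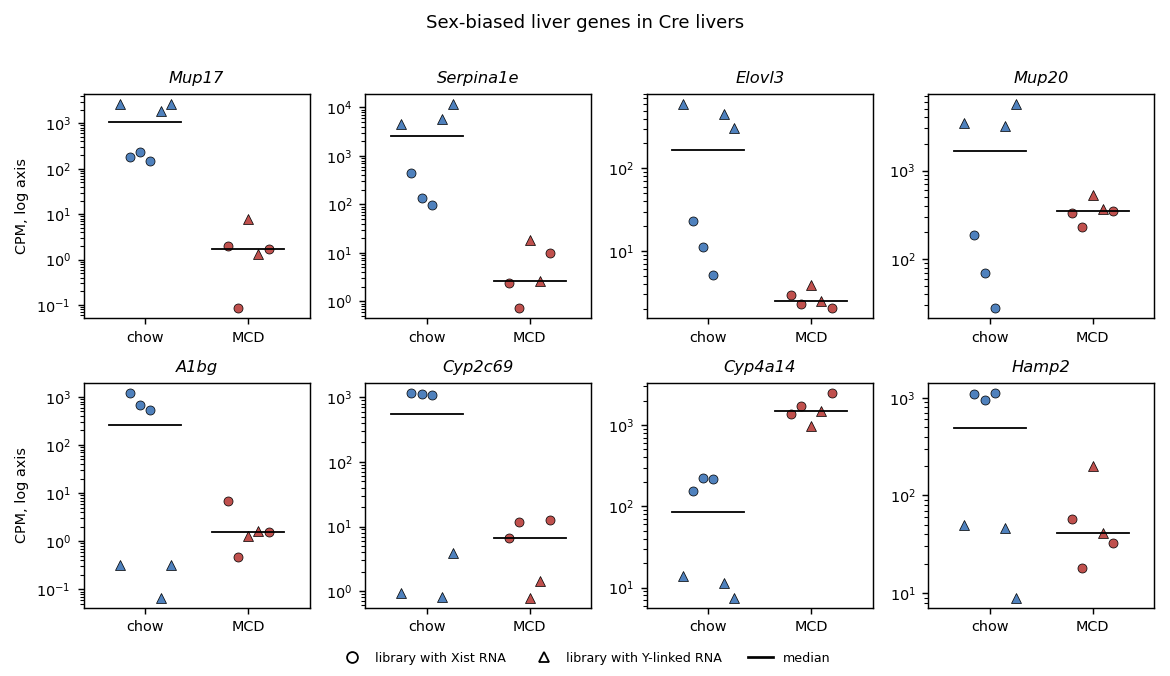
CPM of 8 genes with sex-biased levels on chow in Cre livers, on log axes, 1 point per mouse (blue chow, red MCD; circles Xist libraries, triangles Y libraries; bar, median of the diet group). On chow the circles and triangles lie apart in each panel, and on MCD they lie close together for Mup20 (229 to 526 CPM) and Elovl3 (2.05 to 3.84 CPM).

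Iron genes included Hamp2, with the same kind of sex difference (log2 difference 6.65, adjusted p = 0.000593). Hamp, which encodes hepcidin, the hormone that limits iron uptake, fell with overlap (−0.67, SE 0.27, adjusted p = 0.0399). Tfr2, an iron sensor, fell from 328 to 398 CPM on chow to 163 to 186 CPM on MCD (−1.14, SE 0.10, adjusted p = 1.07e-08), and Fth1, ferritin heavy chain, rose from 1777 to 1869.6 CPM on chow to 1924 to 3138 CPM on MCD (0.52, SE 0.10, adjusted p = 0.000176). Of 18 iron genes 4 were higher and 5 lower, and the count of lower members was 3 without Cre MCD 3. Within Y libraries 2 were higher and 3 lower.

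Secreted plasma proteins fell broadly. Of 40 plasma, coagulation and complement genes 34 were lower and none higher (median −0.98), and 31 of the 40 had no overlap, against 16.9% of all genes. Mbl2, a lectin that starts complement, had 497 to 986 CPM (median 736) on chow and 41.4, 55.6, 26.2, 19.9 and 33.4 CPM on MCD (log2 fold change −4.39, SE 0.41, adjusted p = 1.41e-08). C9, of the membrane attack complex, fell from 284 to 1469.7 CPM (median 823) on chow to 103, 21.3, 101, 106 and 46.3 CPM on MCD (log2 fold change −3.45, SE 0.61, adjusted p = 5.6e-05). Ttr, transthyretin, fell from 7092 to 10526 CPM (median 8202) on chow to 3520.3, 2883, 3193, 3920.2 and 3672 CPM on MCD (log2 fold change −1.28, SE 0.11, adjusted p = 4.04e-09), and Serpina1c, α1-antitrypsin, from 1978 to 4480 CPM on chow to 116 to 665 CPM on MCD (−2.88, SE 0.32, adjusted p = 1.83e-07). Alb, albumin, whose promoter drives the Cre transgene, fell less (76112 to 126083 CPM (median 98713) on chow, 73578, 52206, 85322, 80886 and 74966 CPM on MCD; log2 fold change −0.46, SE 0.18, adjusted p = 0.029). Its change was −0.84 (log2) within Xist libraries and 0.013 within Y libraries, where it did not pass.

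Acute phase proteins were divided (26 tested, 8 higher and 12 lower; median −0.67). Lcn2, an iron-scavenging lipocalin, rose from 3.54 to 115 CPM (median 13.1) on chow to 572, 842, 289.5, 532 and 561 CPM on MCD (log2 fold change 3.93, SE 0.65, adjusted p = 2.91e-05), and Mt2, a metallothionein, from 0.474 to 12.0 CPM (median 3.09) on chow to 177, 186, 70.9, 86.3 and 188 CPM on MCD (log2 fold change 4.90, SE 0.50, adjusted p = 5.19e-08). Saa1, serum amyloid A, had 2004 CPM in Cre Chow 1 and 31.8 to 2004 CPM (median 64.9) over chow, and 44.8, 10.4, 38.2, 42.1 and 22.4 CPM on MCD, with Cre Chow 1 and 5 above the other chow livers and overlap between the diets (log2 fold change −3.81, SE 1.04, adjusted p = 0.00357). Its close copy Saa2 had the same order (−4.34, SE 1.13, adjusted p = 0.00255).

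The nuclear receptors and other transcription factors listed for hepatocytes were lower in 18 of 22 cases and higher in 2 (median −0.74). Of 14 nuclear receptors 10 were lower and 2 higher, and all 8 other factors were lower. Within Xist libraries 14 of the 22 were lower, and within Y libraries 11 were (median −0.50). Hnf4a, a main regulator of hepatocytes, fell from 552 to 756 CPM (median 659) on chow to 375, 492, 378, 377 and 431 CPM on MCD (log2 fold change −0.68, SE 0.12, adjusted p = 7.01e-05). Onecut1 fell from 4.43 to 39.1 CPM (median 6.32) on chow to 2.1, 1.55, 1.69, 1.7 and 1.79 CPM on MCD (log2 fold change −2.77, SE 0.63, adjusted p = 0.000774). Nr1i3 (CAR), the sensor that drives Cyp2b10, did not pass (−0.44, SE 0.27, adjusted p = 0.173). Pparg, low in healthy liver, rose from 3.95 to 11.1 CPM (median 7.4) on chow to 21.2, 18.9, 12.3, 14.4 and 24.1 CPM on MCD (log2 fold change 1.29, SE 0.24, adjusted p = 0.000116), as did Esrra (0.56, SE 0.13, adjusted p = 0.000627). Of 19 clock genes 2 were higher and 4 lower, and without the chow libraries of low mapping share 5 were higher and 6 lower. Within Xist libraries 4 were higher and 4 lower. Dbp spread from 1.46 to 195 CPM on chow alone, and Arntl did not pass (−1.19, SE 0.52, adjusted p = 0.0574). Per1 rose (1.42, SE 0.34, adjusted p = 0.00107) and Nfil3 fell (−2.11, SE 0.36, adjusted p = 4.09e-05). Sampling times are not given in the sources used here.

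Fetal liver genes were higher in part (10 tested, 5 higher and 1 lower; median 1.57). Afp, α-fetoprotein, had 0.926 to 3.37 CPM (median 1.89) on chow and 173, 251, 40.7, 102 and 389 CPM on MCD, a 101-fold rise (log2 fold change 6.66, SE 0.58, adjusted p = 6.56e-09; exact permutation p = 0.00216). H19, an imprinted RNA that is shut off after birth, rose from 0.158 to 0.789 CPM (median 0.484) on chow to 43.9, 4.78, 61.0, 13.4 and 5.99 CPM on MCD (log2 fold change 5.77, SE 1.04, adjusted p = 7.07e-05), and Mest, another imprinted gene, fell (−1.08, SE 0.28, adjusted p = 0.00241).

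Macrophage genes of recruited and lipid-associated cells rose (13 tested, 12 higher and 1 lower; median 2.08). The count of higher members was also 12 without Cre MCD 3, without Cre Chow 5, without both, within the Xist libraries and within the Y libraries. Lyz2 (lysozyme), shared by macrophages and neutrophils, is the most abundant gene of the list. Gpnmb (ENSMUSG00000029816, chromosome 6 from 49036546 to 49070929 on the plus strand), a glycoprotein of lipid-loaded macrophages, had 0.0791 to 0.677 CPM (median 0.274) on chow and 107, 47.8, 262, 152 and 73.8 CPM on MCD, a 415-fold rise (log2 fold change 8.70, SE 0.63, adjusted p = 3.89e-10; exact permutation p = 0.00216). Trem2, a lipid receptor of the same cells, rose from 0.316 to 0.88 CPM (median 0.52) on chow to 13.8, 10.5, 17.0, 18.1 and 11.9 CPM on MCD (log2 fold change 4.69, SE 0.37, adjusted p = 1.77e-09). Itgax (CD11c) rose from 0.161 to 1.1 CPM (median 0.544) on chow to 14.4, 7.37, 23.1, 16.6 and 7.99 CPM on MCD (log2 fold change 4.42, SE 0.42, adjusted p = 2.28e-08), and Mmp12, macrophage elastase, from 0.0791 to 0.609 CPM (median 0.521) on chow to 123, 56.0, 148, 147 and 77.6 CPM on MCD (log2 fold change 7.97, SE 0.50, adjusted p = 4.96e-11). Fabp5, a fatty acid carrier, was the member that fell (−2.22, SE 0.40, adjusted p = 8.24e-05).

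Resident Kupffer cell genes did not rise with them (10 tested, 1 higher and 5 lower; median −0.49). Their sum was lowest in Cre MCD 3, at 267.5 CPM against at least 404.2 CPM in any other Cre library. Without that library 1 was higher and 5 were lower (median −0.30). Timd4, a receptor of long-lived Kupffer cells, fell from 6.77 to 15.5 CPM (median 9.84) on chow to 4.94, 5.0, 1.87, 6.74 and 6.35 CPM on MCD (log2 fold change −1.13, SE 0.24, adjusted p = 0.000501), and Clec4f, specific to these cells, fell with overlap (−0.77, SE 0.23, adjusted p = 0.00616). Cd163, a scavenger receptor, fell (−1.24, SE 0.28, adjusted p = 0.000685), and Marco, another, rose with overlap (2.32, SE 0.52, adjusted p = 0.000736). C6, the most abundant gene of the list, is a complement component that hepatocytes also make.

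Chemokines and cytokines, with their receptors, were higher in 18 of 26 cases and lower in 4 (median 1.56), and within Y libraries 15 were higher and 1 lower. Ccl2, which recruits monocytes, rose from 0.241 to 1.03 CPM (median 0.655) on chow to 10.1, 2.54, 6.09, 6.99 and 7.79 CPM on MCD (log2 fold change 3.32, SE 0.38, adjusted p = 2.64e-07). Ccl3 and Cxcl2 rose from at most 0.406 CPM on chow to 0.56 to 1.59 CPM (4.14, SE 0.63, adjusted p = 1.15e-05) and 0.603 to 2.92 CPM (3.57, SE 0.56, adjusted p = 1.68e-05). Ccl9 fell from 76.7 to 116 CPM on chow to 21.5 to 69.8 CPM on MCD (−1.03, SE 0.23, adjusted p = 0.000703). Cxcl5 was lower (−2.99, SE 1.16, adjusted p = 0.0318) with 23.9 CPM in Cre Chow 5, and without that library its change was 1.12 (log2) and did not pass. Of 12 neutrophil genes 6 were too low to test, 5 were higher, 3 of them without overlap, and 1 was lower. Within Y libraries 3 were higher and 1 lower. S100a8 (2.87, SE 0.47, adjusted p = 2.31e-05) and S100a9 (2.92, SE 0.42, adjusted p = 5.13e-06) rose without overlap. Ltf, lactoferrin, was lower (−6.32, SE 1.53, adjusted p = 0.00132) with 40.5 CPM in Cre Chow 5, and without that library its change was −2.48 (log2) and still passed. The summed neutrophil level of Cre Chow 5 (51.3 CPM) lay within the MCD range of 17.7 to 65.3 CPM. Of 16 tested lymphocyte genes none was called in either direction, with Cd3e at 0.474 to 1.24 CPM on chow and 0.717 to 1.12 CPM on MCD (0.12, SE 0.26, adjusted p = 0.723) and Cd79a overlapping as well (−0.15, SE 0.45, adjusted p = 0.796). Without Cre MCD 3, 3 of the 16 were lower and none higher. Within the Xist libraries 7 were lower and none higher (median −0.90), and within the Y libraries, which include Cre MCD 3, 6 were higher and 1 lower (median 0.98).

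Interferon-stimulated genes had 5 of 26 members higher (19.2%) and 10 lower (38.5%), with a median of −0.15. The shares over all genes were 29.3% and 28.2%, and the difference from them was not tested. Within Xist libraries 3 were higher and 11 lower (median −0.36), and without the chow libraries of low mapping share 3 were higher and 12 lower (median −0.34). Within Y libraries 7 were higher and 7 lower (26.9% each), against 21.3% and 20.3% of all genes. Usp18, which limits interferon signalling, rose from 7.1 to 12.9 CPM (median 12.4) on chow to 32.3, 31.7, 24.2, 26.8 and 39.0 CPM on MCD (log2 fold change 1.48, SE 0.16, adjusted p = 1.02e-07), and Rsad2 (viperin) rose with overlap (1.64, SE 0.30, adjusted p = 0.000105). Bst2 (tetherin), also induced by interferon, fell from 117 to 154 CPM (median 138) on chow to 55.5, 43.8, 48.6, 53.6 and 55.3 CPM on MCD (log2 fold change −1.41, SE 0.11, adjusted p = 8.09e-10). Isg15 was slightly higher (0.44, SE 0.17, adjusted p = 0.0281). The promoters of Rsad2 and Bst2 are shown because both hold the interferon element, the letters TTTC spaced by any 2 bases from a second TTTC, although the genes moved in opposite directions. RefSeq windows of the same kind as above held these letters, on either strand, in 2 of 4 risen, 6 of 7 fallen and 4 of 8 uncalled members, against 3.99% of all genes. The capitals mark the matches, which overlap in Bst2. The windows are chr12:26456403-26456702 and chr8:71537423-71537722, both on the minus strand.
Rsad2: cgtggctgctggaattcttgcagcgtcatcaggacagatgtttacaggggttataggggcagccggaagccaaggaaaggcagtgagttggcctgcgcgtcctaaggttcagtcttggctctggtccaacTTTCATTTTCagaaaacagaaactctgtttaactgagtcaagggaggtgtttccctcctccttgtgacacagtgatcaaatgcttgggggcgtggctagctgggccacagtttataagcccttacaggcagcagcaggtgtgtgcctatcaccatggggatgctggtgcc
Bst2: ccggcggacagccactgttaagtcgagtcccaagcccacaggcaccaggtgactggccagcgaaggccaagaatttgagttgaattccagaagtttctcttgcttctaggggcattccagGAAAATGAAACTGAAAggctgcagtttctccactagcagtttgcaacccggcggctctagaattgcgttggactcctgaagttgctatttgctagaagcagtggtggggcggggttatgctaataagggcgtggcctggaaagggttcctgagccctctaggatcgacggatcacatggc

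Of 15 antigen presentation genes 2 were higher and 4 lower. Within Y libraries all 7 class II genes were higher (median 1.25), and within Xist libraries none was called in either direction (median −0.17). The Y libraries on MCD are Cre MCD 3 and 4, and Cre MCD 3 held the highest lymphocyte sum (162.5 CPM). B2m, the light chain of class I molecules, fell from 1827 to 2174 CPM (median 1929) on chow to 1218, 954, 1196, 1169 and 1441 CPM on MCD (log2 fold change −0.71, SE 0.10, adjusted p = 4.3e-06), and Psmb8, of the immunoproteasome, fell (−0.95, SE 0.14, adjusted p = 9.72e-06). Cd74, the class II invariant chain, did not pass (0.33, SE 0.22, adjusted p = 0.218).

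Matrix genes rose together (42 tested, 32 higher and 3 lower; median 1.32). Col1a1 (ENSMUSG00000001506, chromosome 11 from 94936224 to 94953042 on the plus strand), of the main fibrillar collagen of scar, had 2.77 to 8.88 CPM (median 3.98) on chow and 37.6, 16.0, 41.0, 39.2 and 15.8 CPM on MCD, with no overlap (log2 fold change 2.67, SE 0.40, adjusted p = 9.36e-06; exact permutation p = 0.00216). Col3a1 rose with overlap (16.3 to 42.6 CPM (median 27.4) on chow, 88.8, 29.6, 115, 78.2 and 39.2 CPM on MCD; log2 fold change 1.36, SE 0.36, adjusted p = 0.00273). Spp1, osteopontin, rose from 30.5 to 61.0 CPM (median 44.4) on chow to 148, 111, 96.4, 104 and 126 CPM on MCD (log2 fold change 1.39, SE 0.22, adjusted p = 1.95e-05). Timp1, an inhibitor of matrix proteases, had at most 1 count per chow library and 0.991 to 3.2 CPM on MCD, and its ratio of summed counts was 45.7 (exact 95% counting interval 17.6 to 169). Col18a1, a basement membrane collagen that hepatocytes make, fell from 1085 to 1369 CPM on chow to 515 to 736 CPM on MCD (−1.01, SE 0.10, adjusted p = 7.27e-08), and Col15a1 fell with overlap (−1.18, SE 0.36, adjusted p = 0.00806). Without Cre MCD 3 30 members were higher, and within Xist libraries 23. The number was 38 within Y libraries, which include Cre MCD 3.

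Stellate cell genes were higher in 11 of 18 cases and lower in 2 (median 0.86), with all 8 activation markers higher and 3 of 10 quiescence markers. Without Cre MCD 3, whose stellate cell genes summed to 925.6 CPM against at most 584.3 CPM in any other Cre library, 8 of the 18 were higher (median 0.52), with 5 of the 8 activation markers. Within Xist libraries 7 of the 18 and 4 of the 8 activation markers were higher. Acta2, smooth muscle actin of myofibroblasts, rose from 0.803 to 3.99 CPM (median 1.47) on chow to 5.06, 6.12, 15.8, 7.71 and 4.56 CPM on MCD, with Cre MCD 3 far above the rest (log2 fold change 2.09, SE 0.55, adjusted p = 0.00272), and without that library its change was 1.67 (log2) and still passed. Des (6.96, 6.64, 146, 15.3 and 5.99 CPM on MCD; 2.83, SE 0.64, adjusted p = 0.000737) and Tpm2 (7.82, 6.29, 209, 15.7 and 4.41 CPM; 2.76, SE 0.79, adjusted p = 0.00505) are also muscle genes and were far highest in Cre MCD 3, and without Cre MCD 3 and Cre Chow 5 their changes were 0.75 and 0.18 (log2), of which that of Tpm2 did not pass. Lrat, which stores vitamin A, did not pass (0.36, SE 0.20, adjusted p = 0.124). Cd34, a marker that capillary-like endothelium gains, rose (2.59, 1.94, 10.7, 2.67 and 2.05 CPM on MCD; 2.17, SE 0.46, adjusted p = 0.000403), again highest in Cre MCD 3, while the sinusoidal markers had 8 of 12 members lower and 1 higher. Within Xist libraries 9 of the 12 were lower and none higher (median −0.82). Within Y libraries, among them Cre MCD 3, the counts were 2 lower and 3 higher (median −0.17). Among these markers Gpr182 (−0.97, SE 0.18, adjusted p = 8.11e-05) and Clec4g (−0.79, SE 0.15, adjusted p = 0.000112) fell, and Stab2 did not pass (0.12, SE 0.12, adjusted p = 0.411).

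Cell cycle genes were higher in 43 of 52 cases and lower in 2 (median 2.10), and of the 29 mitosis genes 28 were higher. Mki67, present in all cycling cells, rose from 1.74 to 5.87 CPM (median 3.62) on chow to 35.1, 6.81, 6.75, 39.1 and 11.9 CPM on MCD (log2 fold change 2.37, SE 0.57, adjusted p = 0.00122). Ccnd1, cyclin D1, the entry signal of the hepatocyte cycle, rose from 29.3 to 148 CPM (median 92.0) on chow to 492, 346, 398, 465 and 423 CPM on MCD (log2 fold change 2.24, SE 0.35, adjusted p = 1.37e-05). Ttk, a spindle checkpoint kinase, rose from 0 to 0.304 CPM on chow to 0.469 to 5.38 CPM on MCD (3.77, SE 0.72, adjusted p = 0.000142). Tk1, thymidine kinase, fell against this direction, from 17.8 to 37.2 CPM (median 22.1) on chow to 8.73, 3.92, 7.5, 9.27 and 5.12 CPM on MCD (log2 fold change −1.79, SE 0.24, adjusted p = 1.85e-06). The count of higher members was 46 without Cre MCD 3, 43 without Cre Chow 5, 42 within Xist libraries, 38 within Y libraries and 35 without the chow libraries of low mapping share, where 21 of the 29 mitosis genes were higher. Of 18 p53 targets 11 were higher and 2 lower (median 0.72). Within Y libraries 6 were higher and none lower, and 9 were higher both within Xist libraries and without the chow libraries of low mapping share. Cdkn1a (p21) rose with overlap (1.37 to 35.7 CPM (median 9.21) on chow, 37.2, 44.0, 7.92, 27.8 and 50.7 CPM on MCD; log2 fold change 1.45, SE 0.52, adjusted p = 0.0209), and Tnfrsf10b, a death receptor, rose without (2.88, SE 0.37, adjusted p = 1.44e-06). Which cells cycled was not tested here.

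The promoter of Plk1, a mitotic kinase among the 28, is shown because most mitosis genes that rose share a short element with it. The letters TTTGAA of the cell cycle homology region were found, on either strand, in 18 of the 24 risen mitosis genes with a RefSeq window of 300 bases, against 20.2% of all genes. The capitals mark the match (chr7:122159185-122159484, plus strand). A match of 6 letters is a description and not a binding site.
Plk1: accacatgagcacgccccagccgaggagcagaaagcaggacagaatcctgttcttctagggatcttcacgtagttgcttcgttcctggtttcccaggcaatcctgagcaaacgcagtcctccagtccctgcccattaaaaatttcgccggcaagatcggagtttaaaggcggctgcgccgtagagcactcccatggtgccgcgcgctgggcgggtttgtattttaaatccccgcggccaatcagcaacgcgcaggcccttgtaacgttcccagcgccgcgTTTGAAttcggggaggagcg

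Lysosomal genes were higher in 17 of 26 cases and lower in 2 (median 0.44). Ctsd, cathepsin D, rose from 213 to 313 CPM (median 238) on chow to 459, 444, 418, 573 and 537 CPM on MCD (log2 fold change 0.97, SE 0.11, adjusted p = 1.96e-07), and Cd63, a membrane protein of late endosomes, from 2.69 to 5.9 CPM (median 4.5) on chow to 69.9, 114, 38.2, 63.9 and 145 CPM on MCD (log2 fold change 4.33, SE 0.33, adjusted p = 1.08e-09). Lamp2, which hepatocytes use in autophagy, fell from 694 to 783 CPM (median 768) on chow to 435, 344, 489, 394 and 465 CPM on MCD (log2 fold change −0.83, SE 0.09, adjusted p = 1.77e-07).

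Bile duct genes had 4 of 13 tested members higher and none lower (median 0.40). Within Y libraries 1 was higher, and within Xist libraries 5 were (medians −0.052 and 1.14). Bicc1 rose without overlap (1.85 to 6.09 CPM (median 4.85) on chow, 17.1, 13.7, 17.4, 14.7 and 16.0 CPM on MCD; log2 fold change 1.85, SE 0.30, adjusted p = 2.34e-05). Krt19, the bile duct keratin, had 18.3 CPM in Cre Chow 5 against a chow median of 1.75 CPM, and 3.54, 3.1, 5.3, 2.23 and 2.61 CPM on MCD (log2 fold change −0.37, SE 0.58, adjusted p = 0.606). Without Cre Chow 5 its change was 1.09 (adjusted p = 0.00887), and 7 of the 13 genes were higher (median 1.35). Krt19 thus changed direction with that library.

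Skeletal muscle genes were higher in 25 of 27 cases (median 7.57). Tnnt3, a fast troponin, had 3.13, 0.0862, 502, 27.5 and 0 CPM on MCD and at most 0.609 CPM on chow (9.95, SE 2.19, adjusted p = 0.000574). Without Cre MCD 3, 20 were higher and 1 was lower (median 3.59), with Cre MCD 4, at a sum of 226.3 CPM, still included. Within the Xist libraries, which hold neither, none was higher and 1 was lower. Eef1a2 and Cmya5, of striated muscle, were at 0 counts in every chow library and had 2.35, 1.12, 58.5, 5.38 and 1.49 CPM and 0.535, 0.0431, 59.9, 1.79 and 0.102 CPM on MCD, at least 57.1-fold and 51.8-fold higher than 3 counts in a chow library, on the mean over MCD livers. Ttn, titin, followed (1.15, 0.603, 183, 7.62 and 0.82 CPM on MCD; log2 fold change 7.39, SE 1.42, adjusted p = 0.000149). These 3 passed the rule for the largest rises but were highest in Cre MCD 3. That library held 1248 of the 1471 MCD counts of Eef1a2 and 1278 of the 1331 of Cmya5. The bounds for Eef1a2 and Cmya5 therefore rest mostly on it.

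The lists for other cell types were short of tested members. Of red blood cell genes 5 of 7 were tested and 3 were higher (1 within Xist libraries), of mesothelial genes 5 of 6 were tested and 3 were higher (1 without Cre MCD 3 and Cre Chow 5, 1 within Xist libraries and 5 within Y libraries), and of pancreatic acinar genes 2 of 12 were tested, 1 higher and 1 lower. Of the 6 adipocyte genes 1 was tested, and it was higher. Hepatocyte markers were lower in 9 of 12 cases and never higher (median −0.96).

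Among the other genes with the largest rises, Vmn2r3, a vomeronasal receptor gene, had 0 to 0.425 CPM (median 0.259) on chow and 101, 229, 107, 125 and 104 CPM on MCD (log2 fold change 9.11, SE 0.53, adjusted p = 1.99e-11). Sprr1a, an epithelial stress protein, held 1 count over all chow libraries and 54.6, 36.4, 14.1, 46.8 and 13.4 CPM on MCD, a ratio of summed counts of 3018 (exact 95% counting interval 541 to 1.19e+05). Krt20, an intestinal keratin, held 2 chow counts and 24.9, 13.6, 1.73, 16.2 and 14.3 CPM on MCD (ratio 641, interval 177 to 5301). Wfdc3, of a protease inhibitor family, held 18.7, 97.001, 2.06, 12.3 and 17.8 CPM on MCD and was highest in Cre MCD 2. Beside the sex-biased genes, the largest falls included Dct, an enzyme of the melanin pathway, from 6.77 to 26.2 CPM (median 17.8) to at most 0.146 CPM (ratio of summed counts 260, exact 95% counting interval 126 to 649). Chrna4, an acetylcholine receptor subunit, fell from 8.36 to 73.8 CPM (median 31.5) on chow to 0.165, 0, 0.187, 0.388 and 0.0512 CPM on MCD (log2 fold change −7.94, SE 0.83, adjusted p = 7.54e-08). Intervals and ratios of counts cover counting error only.

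The response of Cre mice differed from that of liver-Flcn-/- mice for 1242 genes (8.83%) in a test of the difference itself, 779 (5.54%) with the more positive and 463 (3.29%) with the more negative response in Cre mice. The count was 819 without Cre MCD 1. With only those Cre chow libraries whose number in the source label lies in the MCD range it was 639. It was 779 without the chow libraries of low mapping share of both genotypes, which left only Xist libraries on chow. The largest departure from that share among metabolic lists was in the subunits of nuclear-coded oxidative phosphorylation. Of 76 such genes 37 were lower and 2 higher in Cre mice, none by 2-fold (median −0.17). Within Xist libraries 20 were lower (median −0.089), within Y libraries 36 (median −0.31), and without the chow libraries of low mapping share 29. With all libraries 46 of the 76 (60.5%) had a more negative response than in liver-Flcn-/- mice, where 42 were higher and none lower (median 0.27). Ndufa6, of complex I, had 177 to 218 CPM (median 198) on chow and 102, 115, 100.4, 104 and 117 CPM on MCD (log2 fold change −0.88, SE 0.08, adjusted p = 8.91e-09), and the responses differed by −0.70 (adjusted p = 0.000912). Uqcrb, of complex III, fell from 135 to 161 CPM (median 146) on chow to 79.1, 76.2, 85.3, 79.5 and 85.8 CPM on MCD (log2 fold change −0.86, SE 0.07, adjusted p = 4.43e-09; difference −0.72 (adjusted p = 0.000518)). Uqcr10, of the same complex, rose with overlap (0.70, SE 0.15, adjusted p = 0.000623).

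Interferon-stimulated genes differed for 18 of 26 members, each with the more positive response in Cre mice (median −0.15 against −1.25). The same direction held for 16 of 52 cell cycle genes, 22 of 42 matrix genes (1 further gene had the opposite direction) and 9 of 13 genes of recruited macrophages. Lipogenesis (1 of 18, 5.56%) and cholesterol synthesis (2 of 24, 8.33%) lay near the share over all genes (8.83%). No male-biased gene (0 of 26) and no nuclear receptor or other factor listed for hepatocytes (0 of 22) was called. The shares of these lists were not tested against that of all genes. A p that misses the threshold does not show that the genotypes responded alike.

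**Figure D5:**
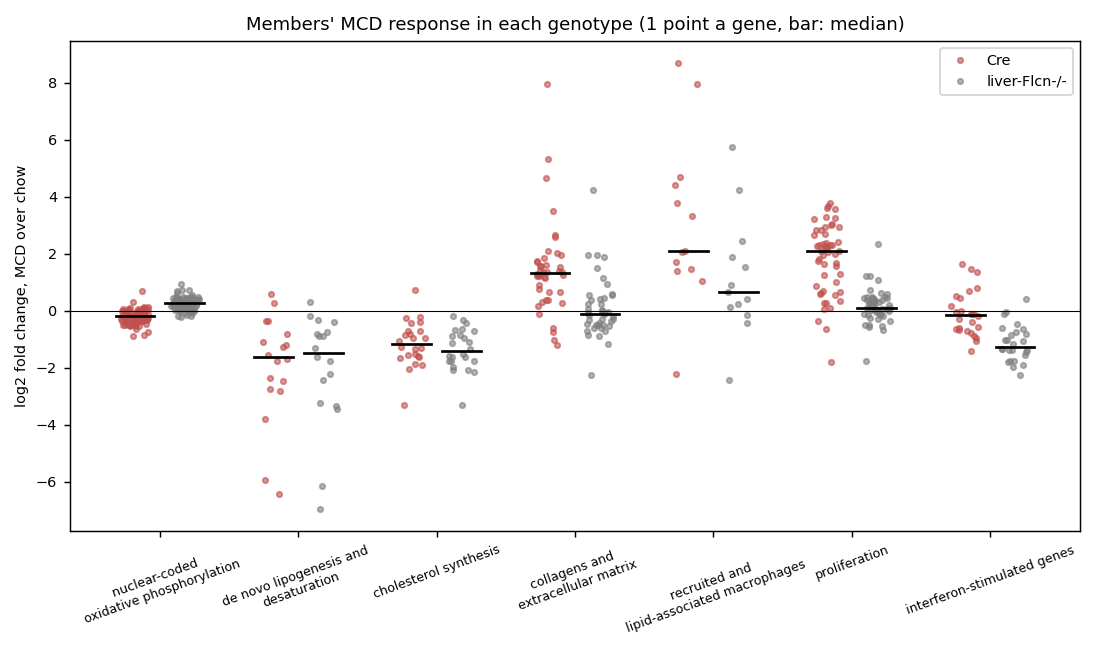
Log2 fold change of MCD over chow for each tested member of 7 lists, in Cre mice (red) and liver-Flcn-/- mice (grey), with a bar at the median. The oxidative phosphorylation points lie within 1 log2 unit of 0 and differ in sign between genotypes at the median (−0.17 and 0.27), and the lipogenesis medians lie side by side (−1.62 and −1.47).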

How the data were processed

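Livers were sequenced as mRNA libraries (KAPA mRNA HyperPrep, single-end reads), 1 per mouse per the study. The authors trimmed reads with Trimmomatic, aligned them with STAR to GRCm38 and deposited whole-number read counts per gene from HTSeq. Strand setting, annotation release and use of the molecular identifiers are not given in the sources used here, so reads of near-identical or overlapping genes may be divided between them. Counts of all 22 libraries were fitted in 4 groups of genotype and diet with edgeR 4.0.16 (R 4.3.3, TMM factors, quasi-likelihood test, Benjamini-Hochberg adjustment over the 14062 genes averaging 10 or more counts, threshold 0.05). The difference between genotypes was tested as an interaction. The response within Xist and Y libraries came from a fit with sex as well. Single genes also had a two-sided exact permutation test over mice. CPM are TMM-scaled. DESeq2 1.42.0, limma-voom (limma 3.58.1), other factors, other filters and left-out libraries were alternatives. Scripts were tested on simulated counts. Named genes were a textbook list, the 10 largest rises and the 10 largest falls among genes that averaged 5 CPM or more in Cre livers, did not overlap between diets and were called with and without Cre MCD 3 and Cre Chow 5, and up to 2 genes per direction of each list. Some genes that these rules name are not reported here. Members, lists and tests were chosen with earlier results of these data known. Coordinates are those of GENCODE M21 (GRCm38), and promoters are from RefSeq (GRCm38.p6).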

Additional observations from a re-analysis of the deposited data

Results flagged for a closer look

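In 32 of 220 groups of libraries looked at, 1 library lay further from the rest than Dixon's 95% limit, which chance passes in about 1 in 20 groups. Of the marker sums, Cre MCD 3 stood apart for skeletal muscle (4588 CPM), lymphocytes (162 CPM), adipocytes (40.4 CPM) and mesothelium (31.5 CPM). Cre Chow 5 stood apart for bile duct cells (121 CPM) and neutrophils (51.3 CPM), and Cre MCD 5 for pancreatic acinar cells (27.4 CPM).

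Among single genes, Cre MCD 3 was far above the other MCD livers for Fasn at 455 CPM, Srebf1 at 167 CPM, Hsd3b5 at 2.86 CPM, Acta2 at 15.8 CPM, Cd34 at 10.7 CPM, Eef1a2 at 58.5 CPM, Cmya5 at 59.9 CPM, Ttn at 183 CPM, Mup17 at 7.78 CPM, Mup16 at 1.27 CPM and Mup11 at 2.91 CPM. Cre MCD 2 was far above them for Trib3 at 248 CPM, Vmn2r3 at 229 CPM and Wfdc3 at 97.001 CPM. On chow, Cre Chow 1 was far above the rest for Saa1 at 2004 CPM. Cre Chow 4 was so for Scd1 at 24868 CPM, Ctsd at 313 CPM and Cdkn1a at 35.7 CPM. Cre Chow 5 was so for Trib3 at 17.0 CPM, Krt19 at 18.3 CPM and Sprr1a at 0.0677 CPM, the last of which is a single count. Cre Chow 6 was so for Asns at 10.8 CPM, Dbp at 195 CPM and Serpina4-ps1 at 437 CPM, and far below the rest for Gclc at 215 CPM.

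The MCD response of these named genes differed between Cre and liver-Flcn-/- mice in the test of the difference (Cre minus liver-Flcn-/-, log2, adjusted p under the threshold). It was more positive in Cre mice for Cidec (2.34), Col1a1 (2.99), Col3a1 (2.25), Spp1 (1.56), Trem2 (2.81), Gpnmb (2.95), Itgax (2.88), Mmp12 (3.71), Ccl2 (2.13), Isg15 (1.26), Cd34 (2.55), Mki67 (2.61), Ccnd1 (1.94) and Sprr1a (7.09). It was more negative for Slc10a1 (−1.06) and Sds (−1.29). Within Cre mice the response differed between Y and Xist libraries (Y minus Xist, log2) for Trib3 (−2.25), Cyp4a14 (3.61), Elovl3 (−4.74), Mup20 (−4.89), Cd79a (3.16) and Stab2 (0.72). Cre MCD 3 is 1 of the 2 Y libraries on MCD.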

How the results depend on the processing

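Over 25 settings, 136 of the 205 called named genes kept their call and direction in each, and 69 did not in at least 1. Of list counts, 2176 were within 1.5 times the reported count and 174 were not. The number of genes higher by at least 2-fold was 2715 with no filter on low counts and 825 where no library could have fewer than 10 counts. TMM factors were 0.815 to 0.889 on Cre chow and 1.06 to 1.20 on Cre MCD, so small shifts of a list can depend on the scaling. With upper quartile factors 4560 genes were higher and 3519 lower, and 88.7% of the lower calls remained. The median log2 fold change over all genes was then 0.071, against 0.012 with TMM factors. The number that differed between genotypes was 779 without the chow libraries of low mapping share, 639 with only chow libraries whose source numbers lie in the MCD range, 552 with a replicate block, and 819 to 1426 when 1 Cre library was left out (819 without Cre MCD 1). With the replicate block, 3968 genes were higher and 3765 lower, and same-numbered libraries did not deviate together (mean r −0.084, from −0.136 to −0.015), so the numbers were not taken as pairs. Without Cre MCD 3 and Cre Chow 5 together, 90.8% of the higher and 92.8% of the lower calls remained, and without the chow libraries of low mapping share 81.4% and 82%. That last setting left only Xist libraries on chow, in both genotypes, against both kinds on MCD.

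Of the named genes whose direction changed, Alb, A1bg, Hamp2, Cyp2a22, Tpm2 and Cxcl5 were called with all libraries, and the cause was not tested. Within the Y libraries these were Mat1a (0.33), Hspa5 (−0.14), Alb (0.013), Nr1i3 (0.30), Cd79a (1.84), Flcn (0.11), Cyp2a22 (−1.21), A1bg (2.65) and Hamp2 (1.79). Within the Xist libraries they were Pemt (−0.066), Cyp7a1 (0.0067), Apob (0.065), Mup20 (1.68), Cd3e (−0.45), Cd74 (−0.21), Stab2 (−0.20), Krt19 (0.57), Tpm2 (−0.60) and Cxcl5 (0.25). Without the chow libraries of low mapping share they were Pemt (−0.12), Cyp7a1 (0.028), Apob (0.098), Mup20 (1.93), Cd3e (−0.20), Stab2 (−0.045), Krt19 (0.69) and Cxcl5 (0.50). With chow source numbers in the MCD range they were Cd3e (−0.18), Krt19 (0.85) and Cxcl5 (0.51), and without Cre MCD 3 and Cre Chow 5 Cd3e (−0.065), Krt19 (0.87) and Cxcl5 (1.15). Limma-voom turned Cyp7a1 (0.049), Krt19 (0.54) and Cxcl5 (0.59), and the replicate block turned Cyp7a1 (0.12) and Krt19 (0.19). Mat1a turned with upper quartile factors (0.032) and with 10 counts in every library (0.024). When 1 library was left out, the range was −0.15 to 0.049 for Mat1a, −0.053 to 0.11 for Pemt, −0.24 to 0.19 for Cyp7a1, −0.51 to 0.28 for Cd79a, −0.59 to 1.09 for Krt19, −3.25 to 1.12 for Cxcl5 and −0.26 to 0.012 for Flcn.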
